A study of Rattus norvegicus and Mus musculus with 12 samples.

Results

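The genes described here carry out DNA replication, nucleotide supply and repair in the S phase of the cell cycle. They were chosen by symbol from a list of 49 genes, of which 48 had a row among the 19687 genes of the rat table and 49 among the 28603 genes of the mouse table. No rat row carried the symbol E2f1. A rule based on level, direction and size of change named 21 of them, and the others named below were chosen after their values were seen, to complete a complex or a role. Articular chondrocytes of newborn (24 h old) animals, at passage 1, had been sequenced as bulk RNA in 12 libraries, with 3 in each of 4 groups. The RC group (rat control) and the RM group (rat model) came from SD rats, and the MC group (mouse control) and the MM group (mouse model) from mice. RM and MM cells had received 20 ng/ml IL-1β for 24 h, while RC and MC cells were untreated. Mouse strain is labelled C57BL/6, C57BL/7 and C57BL/8 for the MC libraries and C57BL/7, C57BL/8 and C57BL/9 for the MM libraries, whereas the methods name C57BL/6 for all mice. The question was whether IL-1β moved the replication genes of rat and mouse chondrocytes in the same direction.

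A dividing cell copies its genome in S phase. Ribonucleotide reductase, thymidylate synthase and thymidine kinase supply deoxynucleotides, the CDC45-MCM-GINS helicase opens the duplex, and primase with DNA polymerase alpha lays down primers that polymerases delta and epsilon extend on the PCNA ring. E2F transcription factors switch most of these genes on before S phase, so their transcripts usually rise and fall together in cycling cells. In adult articular cartilage chondrocytes seldom divide, while chondrocytes isolated from newborn animals proliferate in culture.

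Total counts were 24897458, 23223930 and 21114361 in the RC libraries and 20169272, 25903459 and 23953789 in the RM libraries. They were 17118481, 16841580 and 17957308 in the MC libraries and 20048322, 19560813 and 17482589 in the MM libraries. At these depths a gene with 0 counts in a library would lie below 0.116 to 0.178 CPM, taken as 3 counts, a limit that covers counting error only. Levels are given as FPKM, the deposited values, divided by the TMM factor that edgeR gave each library, so that levels and fold changes share a scale and can be compared between genes per length. Rat and mouse FPKM rest on gene lengths from different annotations, so a gap in level between the species is uncertain. The factors were 0.994 to 1.01 in rat, 1.10 in each MC library and 0.905 to 0.911 in the MM libraries. This scaling matters in mouse, where the median log2 fold change of all genes tested was -0.02 with it and -0.30 with library size alone. The RC libraries also differed more among themselves than those of any other group, with a chi-square per degree of freedom over genes of 12.4 to 27.8 for their pairs against 6.07 to 6.60 for RM pairs and 1.90 to 2.48 for mouse pairs.

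All 11 chondrocyte markers were detected in every library. Their summed FPKM was 4641, 5342 and 4706 in the RC libraries and 1696, 1759 and 1748 in the RM libraries, and 2087, 2054 and 2097 in the MC libraries against 222, 227 and 236 in the MM libraries. Col2a1, the main cartilage collagen, was the most abundant of them, and all 11 had downregulated expression in both species. Fibroblast and synovial markers (9 genes) summed to 1671 to 1822 in the RC group and 1671 to 1706 in the RM group, with Col3a1 the most abundant in the RC group and Thy1 in the RM group. In mouse their sum was 382 to 390.2 in MC libraries, most of it Col3a1, and 1169 to 1200.3 in MM libraries, where Dcn was the most abundant. Of 8 tested in mouse, 5 were higher, Dcn by 4.99 on the log2 scale, and Thy1, Fap and Dpp4 were lower, at -1.56, -1.59 and -2.82. In rat 2 of 9 were higher, Prg4 by 5.79 and Dcn by 2.27, and Cd34, Col3a1 and Pi16 were lower, at -2.36, -0.98 and -0.66, and mouse Prg4 was higher by 3.36. The sum of macrophage and leukocyte markers was 23.2 to 27.3 in the RC group, 33.1 to 36.1 in the RM group, 7.16 to 7.49 in MC libraries and 38.4 to 41.2 in MM libraries. Of 7 tested in rat, 3 were higher (Cd14, Cd68 and Mrc1) and 3 lower (Csf1r -1.20, Lyz2 -0.87 and Laptm5 -1.61), and of 5 tested in mouse 4 were higher and 1 (Mrc1, -0.37) was not called. Cd14 was the most abundant of them in all rat and MM libraries and Cd68 in the MC libraries, whereas Itgam had 0 counts in all 6 mouse libraries and Adgre1 had 0 counts in all 3 MM libraries. Muscle markers summed to 6.59 to 7.49 in RC, 3.94 to 4.497 in RM, 5.14 to 6.16 in MC and 0.466 to 0.975 in MM libraries, and 1 of 2 tested in rat (Tnnt3, -1.12) and 3 of 3 in mouse (Tnnt3 -5.15, Des -3.22 and Acta1 -1.61) were lower. Endothelial markers summed to 0.129 to 0.137 in RC, 0.152 to 0.174 in RM, 0.501 to 0.629 in MC and 0.926 to 0.954 in MM libraries, with Vwf higher (2.18) and Tek lower (-0.80) in mouse and no gene tested in rat. Erythroid markers summed to 0.150 to 0.282 in RC, 0.0220 to 0.230 in RM, 0.168 to 0.376 in MC and 0.0523 to 0.197 in MM libraries, and none had enough counts to be tested. Of all genes tested, 18.3% were higher and 16.8% lower in rat, and 37.4% higher and 37.7% lower in mouse. Whether these marker changes came from a shift in cell types or from expression within cells was not tested. Their part in the changes of replication genes was not tested either. In bulk libraries, a change in the share of cycling cells and a change in replication RNA per cell cannot be told apart, in either direction.

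After filtering of low counts, all 48 rat genes of the group and 48 of 49 mouse genes were tested. In rat, 46 of 48 had upregulated expression in the RM group at an adjusted P value under 0.05 (95.8%), where 18.3% of all 13303 genes tested were higher. None was lower with edgeR's quasi-likelihood test, at an adjusted or an unadjusted P value under 0.05, or with DESeq2 or limma, where 16.8% of all genes were lower. In mouse, 42 of 48 had downregulated expression in the MM group (87.5%), where 37.7% of all 14774 genes tested were lower. Pcna, Prim2 and E2f1 were the 3 with upregulated expression, where 37.4% of all genes were higher, but this direction reversed with limma on log2 FPKM and with library size alone, to log2 fold changes of -0.07, -0.03 and -0.01. The median log2 fold change of the group was 0.78 in rat and -1.31 in mouse, against 0.01 and -0.02 over all genes tested. Criteria for DEGs were also applied, read here as an unadjusted P value under 0.05, a log2 fold change beyond 0.85 up or down, and some library with FPKM no lower than 1. The methods of the study state neither the log2 scale nor whether P was adjusted. By this reading, 16 of 48 rat genes were higher (background 4.64%) and 0 were lower (background 3.9%). In mouse 29 of 48 were lower by the same criteria (background 13%) and 0 were higher (background 12.6%). P values throughout measure the spread between these libraries, which the methods describe as 3 independent samples per group. Spread in mouse was small, with a common coefficient of variation beyond counting error of 0.032 against 0.106 in rat. How many animals each sample held is not stated, so P values may not speak for the spread between animals. The test of the difference between the species used the same estimate of spread for all 4 groups. Permuting 3 against 3 libraries exactly could never give a gene a P value under 0.1.

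The change differed between the species for every gene of the group tested in both, 47 of 47, and in each the change was higher in rat, where 32.3% of 10912 shared genes were. None of the 47 was higher in mouse, at an adjusted or unadjusted P value under 0.05 or with DESeq2 or limma, where 31.4% of shared genes were. The difference, mouse change minus rat change, had a median of -2.19 on the log2 scale and ran from -4.02 for Exo1, a flap and mismatch exonuclease, to -0.52 for Prim2. Of these 47 genes, 40 were called higher in rat and lower in mouse. Another 2, Rfc3 and Gins2, were lower in mouse and not called in rat. Tyms, Msh6 and Blm were higher in rat and not called in mouse, and Pcna and Prim2 were higher in both with TMM, though below 0 in mouse with library size alone. Across the 47 genes, the rat and mouse changes had a Spearman correlation of -0.22, given only as a description since the genes share the same 12 libraries and many are regulated together.

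**Figure D1:**
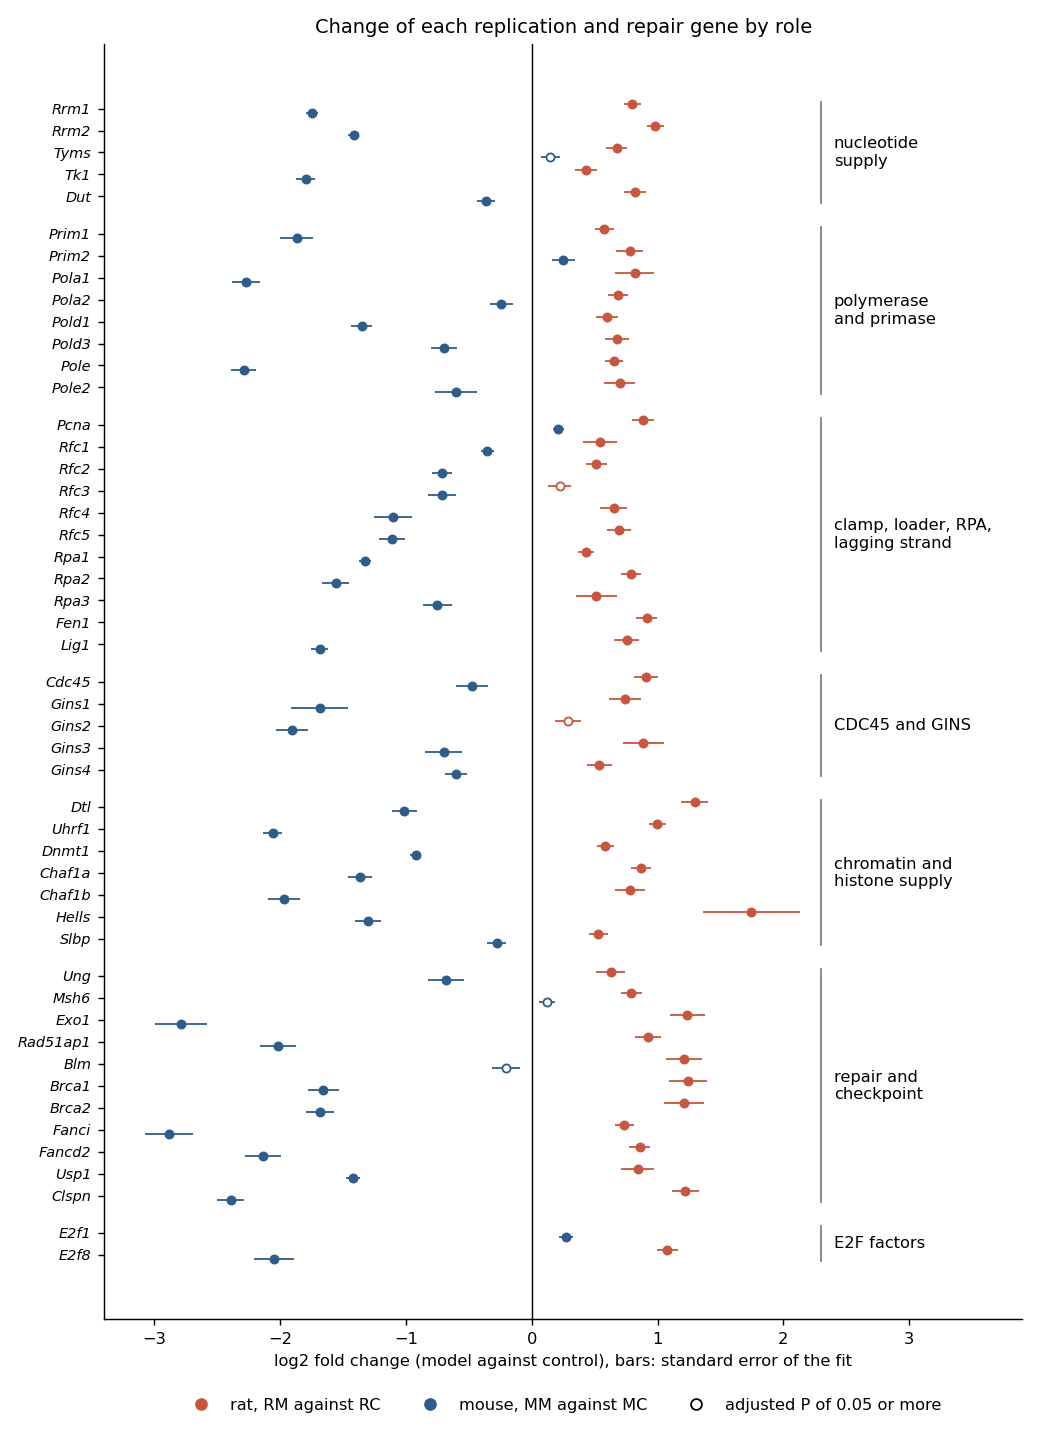
Log2 fold change of each gene in rat (RM against RC, red) and mouse (MM against MC, blue), grouped by role, with bars for the standard error of the fit and open circles for an adjusted P value of 0.05 or more. All 48 rat values lie right of 0 and 43 of 48 mouse values left of it, and the 5 mouse values right of 0 (Tyms, Prim2, Pcna, Msh6, E2f1) fall below 0 with library size alone.

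The plot of changes by role shows that the rat values were packed between 0.22 and 1.30 apart from Hells, at 1.75, while the mouse values spread from -2.88 to 0.27. Summed over the group, FPKM was 824, 776 and 835 in the RC libraries and 1317, 1394 and 1352 in the RM libraries, a ratio of means of 1.67. It was 353, 347 and 349 in the MC libraries and 204, 205 and 208 in the MM libraries, a ratio of 0.587. No RM library came near an RC library, and no MM library near an MC library. Mouse sums include Fen1, at a count of 22 over all 6 libraries, and E2f1, and rat sums lack E2f1, so rat and mouse sums are not of equal gene sets.

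**Figure D2:**
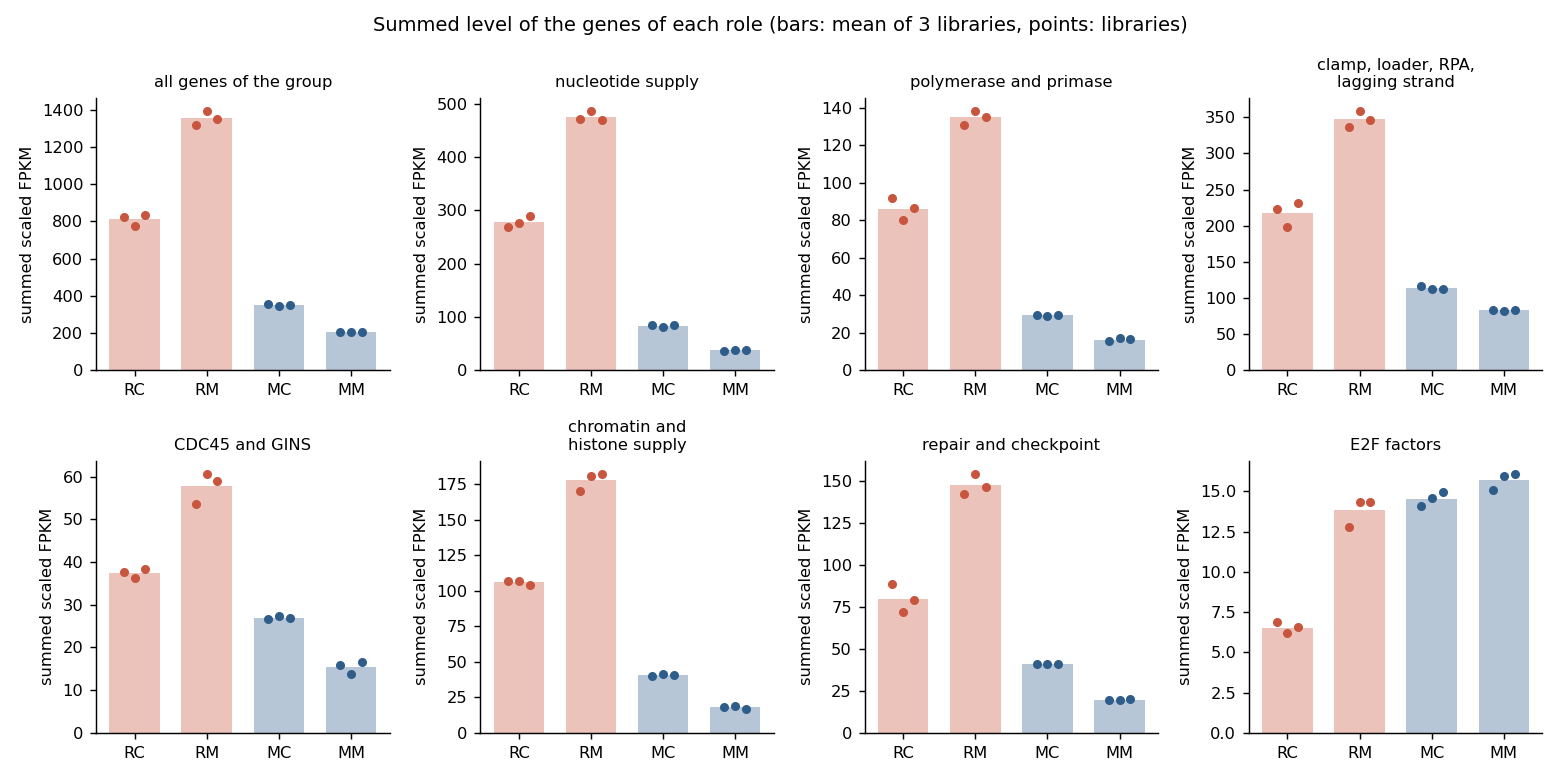
Summed TMM-scaled FPKM of the genes of each role in every library (points), with bars for the mean of 3 libraries, RC and RM in red, MC and MM in blue. Each rat sum is higher in RM than in RC and each mouse sum lower in MM than in MC, except the E2F factors, which in mouse are mostly E2f1 (12.1 to 13.1 in MC and 14.8 to 15.6 in MM, a rise absent with library size alone) and in rat hold E2f8 alone.

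Since the genes moved together, their rat promoter sequences were examined for the letters that E2F factors are known to bind. RefSeq windows of 300 bases (250 before and 50 after the annotated start, build GRCr8) were matched by symbol for 43 of the 49 genes, which had 46 windows. Rrm2, Rpa3, Gins4, Blm, E2f1 and E2f8 had none. The letters TTTCCCGC, TTTGGCGC and TTTCGCGC were searched on both strands, where matches may overlap each other. At least 1 of them was in 18 of 46 windows (39.1%), each of a different gene, and in 577 of all 33469 windows of the table (1.7%). CCAAT, on either strand, was in 26 windows (56.5%) and in 37.5% of all windows, and both kinds of letters were in 10 windows (21.7%) against 0.6% of all. The median GC content was 59.85% in windows of the group and 51.7% in all windows, and the shares were not adjusted for it. A match describes the letters and is neither a bound site nor a cause.

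These 6 windows are shown because the genes stand for different roles and patterns: Gins1, Dnmt1 and Usp1 were higher in rat and lower in mouse, Msh6 and Tyms were not called in mouse, and Pcna was higher in both with TMM, though not in mouse with library size alone. Capitals mark the E2F letters on either strand, and Pcna has none in this window. The windows lie at chr3:160184670-160184969 (plus strand), chr8:27762792-27763091 (minus strand), chr5:118702806-118703105 (plus strand), chr6:12333456-12333755 (minus strand), chr9:120776034-120776333 (minus strand) and chr3:139955771-139956070 (minus strand) of GRCr8, and each is written 5′ to 3′ on the strand of its gene.
Gins1: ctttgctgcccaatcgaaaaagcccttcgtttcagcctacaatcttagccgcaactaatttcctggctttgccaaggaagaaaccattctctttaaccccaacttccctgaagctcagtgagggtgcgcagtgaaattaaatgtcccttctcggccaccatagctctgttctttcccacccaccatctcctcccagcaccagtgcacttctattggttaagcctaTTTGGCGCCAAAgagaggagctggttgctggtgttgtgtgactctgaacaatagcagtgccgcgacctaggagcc
Dnmt1: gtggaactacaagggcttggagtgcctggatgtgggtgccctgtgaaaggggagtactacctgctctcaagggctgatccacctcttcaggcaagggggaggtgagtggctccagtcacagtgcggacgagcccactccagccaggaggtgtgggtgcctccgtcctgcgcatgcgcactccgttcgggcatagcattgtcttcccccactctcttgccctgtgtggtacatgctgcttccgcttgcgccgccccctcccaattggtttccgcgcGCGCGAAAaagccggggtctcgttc
Usp1: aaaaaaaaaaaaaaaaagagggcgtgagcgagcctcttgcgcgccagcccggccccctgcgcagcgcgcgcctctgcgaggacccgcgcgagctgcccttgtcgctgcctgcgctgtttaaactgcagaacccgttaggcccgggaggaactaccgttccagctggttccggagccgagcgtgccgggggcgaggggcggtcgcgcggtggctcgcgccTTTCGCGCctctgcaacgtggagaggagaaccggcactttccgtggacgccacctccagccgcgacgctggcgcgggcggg
Msh6: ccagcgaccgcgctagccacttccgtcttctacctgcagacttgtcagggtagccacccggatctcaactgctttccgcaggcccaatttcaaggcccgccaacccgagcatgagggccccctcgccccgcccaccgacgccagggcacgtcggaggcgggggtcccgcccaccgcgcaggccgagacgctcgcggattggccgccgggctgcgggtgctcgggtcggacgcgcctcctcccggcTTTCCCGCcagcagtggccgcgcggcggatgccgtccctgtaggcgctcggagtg
Tyms: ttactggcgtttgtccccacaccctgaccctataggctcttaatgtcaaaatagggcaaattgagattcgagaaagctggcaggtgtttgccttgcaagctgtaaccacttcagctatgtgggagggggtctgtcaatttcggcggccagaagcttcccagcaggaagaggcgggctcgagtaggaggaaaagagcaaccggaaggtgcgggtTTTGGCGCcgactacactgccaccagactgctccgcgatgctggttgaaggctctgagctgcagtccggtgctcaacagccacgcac
Pcna: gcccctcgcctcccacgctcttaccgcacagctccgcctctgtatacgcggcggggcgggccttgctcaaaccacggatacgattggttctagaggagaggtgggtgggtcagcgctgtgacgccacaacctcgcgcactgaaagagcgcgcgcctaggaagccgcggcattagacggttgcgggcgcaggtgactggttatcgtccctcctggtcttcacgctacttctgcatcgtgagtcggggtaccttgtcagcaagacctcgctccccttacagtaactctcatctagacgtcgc

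In Gins1, matches beginning 25 and 21 bases before the start overlapped. The match began 31 bases before the start in Usp1, 37 before it in Tyms and 5 before it in Msh6, and at base 26 after it in Dnmt1. The 18 genes with a match had a median rat log2 fold change of 0.77 and the 25 without one 0.78. In mouse the medians were -1.16 for 18 genes and -1.36 for 24, and no difference between genes with and without a match was tested. In rat the range was 0.22 to 1.75 with a match and 0.29 to 1.24 without, and in mouse -2.39 to 0.15 with a match and -2.88 to 0.25 without. The windows are rat sequence and were only set beside mouse changes by gene symbol.

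Nucleotide supply was the most abundant role in rat, with a summed FPKM of 269, 276 and 290.1 in the RC libraries and 472, 487 and 469 in the RM libraries. All 5 rat genes had upregulated expression (median log2 fold change 0.80), and 4 of 5 mouse genes had downregulated expression (median -1.41). Shares of all genes tested, 18.3% higher in rat and 37.7% lower in mouse, apply beside the counts of this and every later role. Rrm2 (ENSRNOG00000054286 in rat, ENSMUSG00000020649 in mouse at chr12:24708241-24714146), the regulated small subunit of ribonucleotide reductase, had an FPKM of 83.3, 88.2 and 88.5 in the RC libraries and 171, 175 and 167 in the RM libraries. In mouse, Rrm2 stood at 51.4, 47.5 and 50.3 in the MC libraries and 17.8, 19.0 and 19.4 in the MM libraries. Every RM library was about double the RC libraries in level, every MM library was far below the MC libraries, and replicates lay close together within each group. The log2 fold change was 0.98 ± 0.0659 (SE, adjusted P = 1.96e-06) in rat and -1.41 ± 0.0442 (SE, adjusted P = 5.13e-38) in mouse, with a difference of -2.39 ± 0.0773 (SE, adjusted P = 9.15e-14). Tk1 (ENSRNOG00000047314 in rat, ENSMUSG00000025574 in mouse at chr11:117815526-117826092), which salvages thymidine, had an FPKM of 62.0, 74.4 and 73.1 in the RC libraries and 88.9, 95.3 and 98.3 in the RM libraries, and of 8.05, 7.49 and 7.94 in the MC libraries and 2.35, 2.297 and 2.10 in the MM libraries. The RM libraries were all above the RC libraries, of which RC1 was the lowest, and the MM libraries lay far under any MC library. Tk1 rose in rat by 0.43 ± 0.0840 (SE, adjusted P = 0.00270) on the log2 scale and changed by -1.79 ± 0.0766 (SE, adjusted P = 8.21e-31) in mouse. The difference was -2.23 ± 0.10997 (SE, adjusted P = 1.83e-11).

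Tyms (ENSRNOG00000037225 in rat, ENSMUSG00000025747 in mouse at chr5:30058202-30073617) encodes thymidylate synthase, which makes thymidylate de novo. Its FPKM was 24.5, 21.4 and 22.3 in the RC libraries and 35.9, 38.5 and 34.7 in the RM libraries, so all RM libraries were higher. The mouse levels were 3.80, 3.69 and 3.50 in the MC libraries and 4.11, 3.87 and 4.20 in the MM libraries, where, on this scale but not with library size alone, the MM group was slightly higher without overlap. The rat log2 fold change was 0.68 ± 0.0825 (SE, adjusted P = 1.35e-04). The mouse value, 0.15 ± 0.0747 (SE, adjusted P = 0.0688), did not pass, although it did without MM2 (0.19, adjusted P = 0.0409), and it was -0.13 with library size alone. The difference between the species was -0.53 ± 0.105 (SE, adjusted P = 3.13e-04). Of the other nucleotide genes, Rrm1 and Dut had rat changes of 0.80 and 0.82 and mouse changes of -1.74 and -0.36. Dut removes dUTP from the nucleotide pool, and its mouse fall was the smallest of those called in this role.

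All 8 polymerase and primase genes had upregulated expression in rat, between 0.58 and 0.82 on the log2 scale, a narrower range than in any other role with more than 1 gene tested. In mouse 7 of 8 were lower and Prim2 was higher, though not with library size alone, and the range was -2.29 to 0.25. Prim1 (ENSRNOG00000031993 in rat, ENSMUSG00000025395 in mouse at chr10:128015168-128030037), the catalytic primase subunit, had an FPKM of 42.8, 37.7 and 41.5 in the RC libraries and 58.2, 61.9 and 61.9 in the RM libraries. Mouse libraries held 4.22, 3.58 and 3.47 in the MC libraries and 1.07, 0.975 and 1.04 in the MM libraries. Rat FPKM was above mouse FPKM in the controls, a gap that also depends on the gene length in each annotation. The groups did not overlap in either species. Expression of Prim1 was upregulated in rat (log2 fold change 0.58 ± 0.0763 SE, adjusted P = 2.21e-04) and downregulated in mouse (-1.87 ± 0.128 SE, adjusted P = 1.43e-20), a difference of -2.44 ± 0.130 (SE, adjusted P = 4.71e-11). Prim2 (ENSRNOG00000012486 in rat, ENSMUSG00000026134 in mouse at chr1:33453810-33669795), the regulatory primase subunit, had an FPKM of 8.94, 7.27 and 8.497 in the RC libraries and 13.96, 15.6 and 12.8 in the RM libraries, and of 2.55, 2.50 and 2.67 in the MC libraries and 2.84, 3.19 and 3.19 in the MM libraries. All model libraries were above the controls in both species, in mouse by less, and there not with library size alone or with limma on log2 FPKM. Its log2 fold change was 0.78 ± 0.107 (SE, adjusted P = 2.89e-04) in rat and 0.25 ± 0.0879 (SE, adjusted P = 0.00821) in mouse, where the sign reversed to -0.03 with library size alone. The deposited mouse FPKM, without TMM scaling, overlapped between the groups, at 2.80, 2.76 and 2.94 in the MC libraries and 2.57, 2.89 and 2.91 in the MM libraries. The difference, -0.52 ± 0.139 (SE, adjusted P = 0.00346), was the closest to 0 of all 47.

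Pola2 (ENSRNOG00000020906 in rat, ENSMUSG00000024833 in mouse at chr19:5940542-5964202), the accessory subunit of DNA polymerase alpha, had an FPKM of 6.86, 7.02 and 6.94 in the RC libraries and 10.8, 11.7 and 11.04 in the RM libraries. In mouse it was 5.68, 5.74 and 6.32 in the MC libraries and 4.43, 5.10 and 5.53 in the MM libraries, and MM3 came close to MC1. The length implied by its deposited mouse FPKM was shorter than its 8294 exon bases in GENCODE M21. For 47 of 48 mouse genes of the group the 2 lengths were equal within 1 base. The mouse level of Pola2 beside other genes, and its rank by mean FPKM in this role, are therefore uncertain. Pola2 had a log2 fold change of 0.69 ± 0.0784 (SE, adjusted P = 8.52e-05) in rat and -0.24 ± 0.0931 (SE, adjusted P = 0.0167) in mouse. The mouse call was lost without MC3 (-0.19, adjusted P = 0.0887), without MM1 (-0.15, adjusted P = 0.181) and with DESeq2 (-0.23, adjusted P = 0.0639). The difference between the species was -0.93 ± 0.125 (SE, adjusted P = 5.40e-06). Pola1, the catalytic subunit, was added because it completes this 4-subunit enzyme. Its FPKM was 8.56, 4.99 and 6.14 in the RC libraries and 11.4, 12.04 and 11.3 in the RM libraries, and 2.61, 2.35 and 2.49 in the MC libraries and 0.413, 0.575 and 0.563 in the MM libraries. With a rat change of 0.82 ± 0.158 (SE, adjusted P = 0.00261) and a mouse change of -2.27 ± 0.114 (SE, adjusted P = 3.06e-27), the catalytic subunits Pola1 and Prim1 had the large mouse falls of the complex, and Pola2 and Prim2 had mouse values near 0. The same split was not seen in rat, where the 4 values ran from 0.58 to 0.82. Differences between subunits were not tested. Among the leading and lagging strand polymerases, the mouse changes were -2.29 for the catalytic Pole and -0.60 for its partner Pole2, and -1.35 for the catalytic Pold1 and -0.70 for its partner Pold3. Outside the group, the partners Pole3 and Pole4 had mouse changes of -0.42 and 0.72, and Pold2 and Pold4 of -1.04 and 0.51. Pold2 thus lay nearer to Pold1 than Pold3 did.

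**Figure D3:**
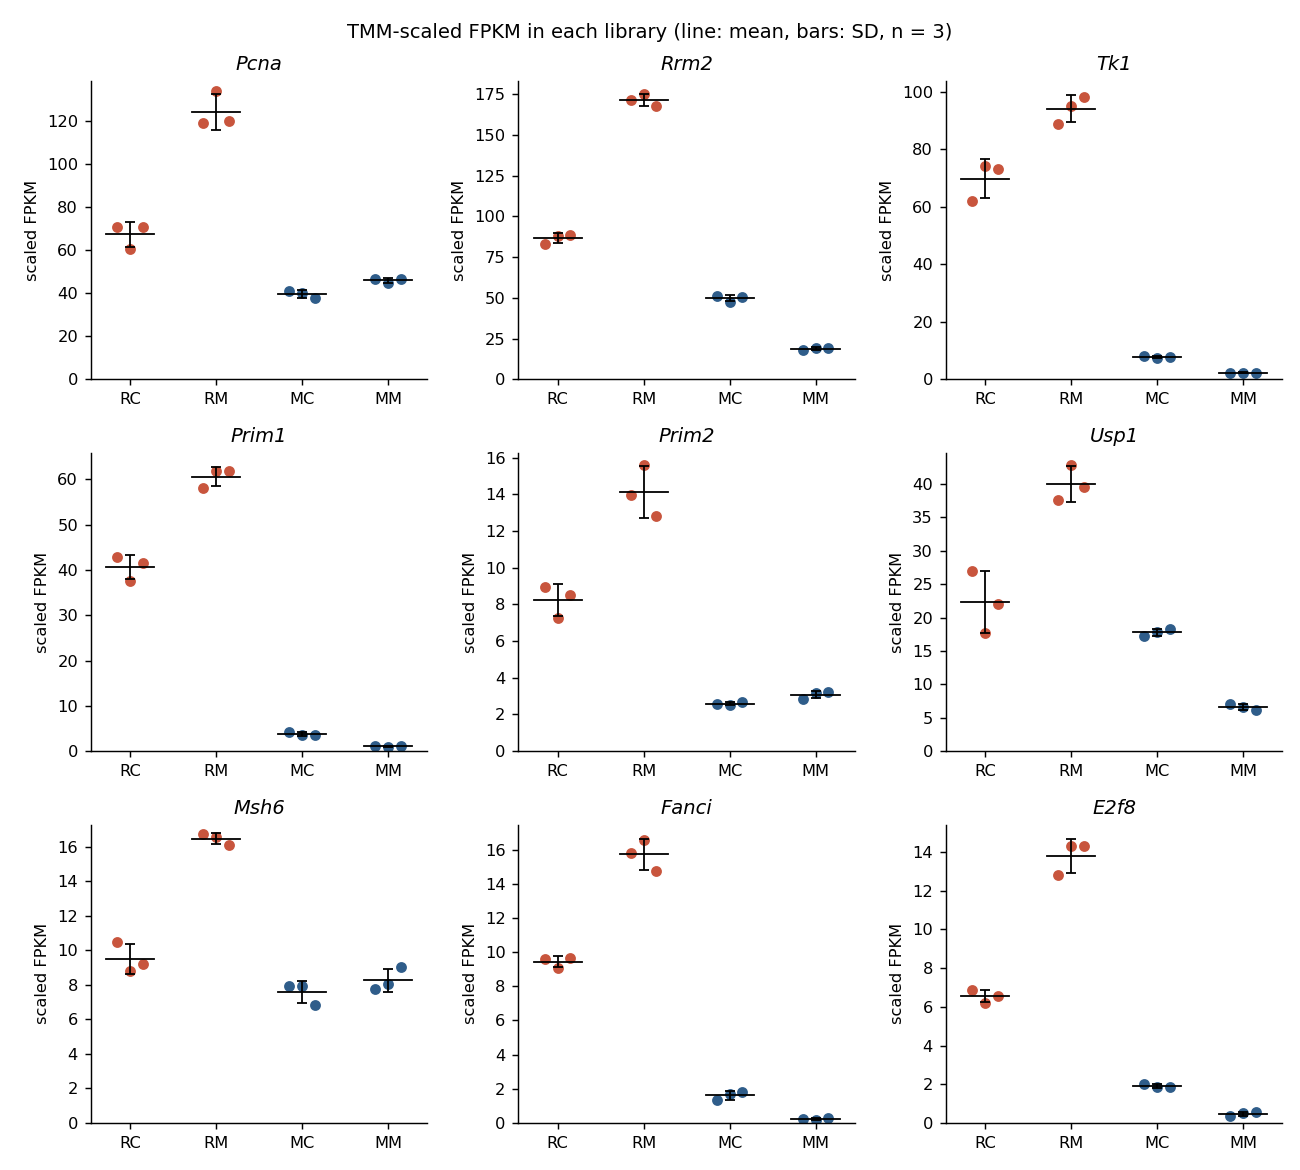
TMM-scaled FPKM (vertical axes, linear, starting at 0) of 9 genes in every RC, RM, MC and MM library, with lines for the mean and bars for the SD of 3 libraries. The RM points lie above the RC points for all 9, and the MM points lie below the MC points for 6, while those of Pcna and Prim2 lie above them on this scale and those of Msh6 overlap. With library size alone the MM points of Pcna and Prim2 are not higher.

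The sliding clamp, its loader, replication protein A and the lagging strand enzymes made up 11 genes. In rat 10 of 11 had upregulated expression (median 0.65), and in mouse 9 of 10 tested were lower (median -0.93), with Pcna higher, though not with library size alone or with limma on log2 FPKM. Pcna (ENSRNOG00000021264 in rat, ENSMUSG00000027342 in mouse at chr2:132249162-132253314) encodes the ring that holds polymerases on DNA. The rat levels were 70.6, 60.8 and 71.0 in the RC libraries and 119, 134 and 119.9 in the RM libraries, and the mouse levels 41.0, 40.3 and 37.8 in the MC libraries and 46.7, 44.8 and 46.6 in the MM libraries. All RM libraries lay well above the RC libraries, and the MM libraries were slightly above the MC libraries without overlap on this scale, though not with library size alone. Pcna rose by 0.88 ± 0.0856 (SE, adjusted P = 2.80e-05) in rat. The mouse log2 fold change was 0.21 ± 0.0409 (SE, adjusted P = 5.09e-06) but -0.07 with library size alone (adjusted P = 0.131), and the deposited FPKM without TMM scaling was 45.1, 44.5 and 41.7 in the MC libraries and 42.3, 40.7 and 42.4 in the MM libraries, where MC3 lay below MM1 and MM3. The difference between the species was -0.67 ± 0.0952 (SE, adjusted P = 1.02e-05). The share of Pcna in the summed FPKM of the group, which no scaling between libraries can move, was 11.6%, 11.6% and 10.8% in the MC libraries and 22.9%, 21.9% and 22.5% in the MM libraries. That of Rrm2 was 14.6%, 13.7% and 14.4% in the MC libraries and 8.72%, 9.25% and 9.35% in the MM libraries, so Pcna replaced Rrm2 as the most abundant gene of the group. In rat, Rrm2 was the most abundant gene in all 6 libraries, at 10.1% to 12.997% of the sum, and Pcna held 7.84% to 9.61%.

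Rpa3 (ENSRNOG00000008309 in rat, ENSMUSG00000012483 in mouse at chr6:8255936-8259173), the smallest subunit of the single-strand binding protein RPA, had an FPKM of 31.2, 18.7 and 29.0 in the RC libraries and 36.3, 38.8 and 37.6 in the RM libraries, with RC2 well below the other RC libraries. In mouse it was 11.9, 10.6 and 10.3 in the MC libraries and 6.55, 7.04 and 5.86 in the MM libraries, and all MM libraries were lower. The log2 fold changes were 0.51 ± 0.1599 (SE, adjusted P = 0.0301) and -0.75 ± 0.116 (SE, adjusted P = 4.32e-08), a difference of -1.27 ± 0.213 (SE, adjusted P = 6.25e-05). The rat call was lost without RC3 (0.59, adjusted P = 0.0517), RM1 (0.54, adjusted P = 0.0727), RM2 (0.49, adjusted P = 0.0866) or RM3 (0.52, adjusted P = 0.0687), whereas it held without RC1 (0.65) or RC2 (0.31). Rfc3 (ENSRNOG00000001088 in rat, ENSMUSG00000033970 in mouse at chr5:151642756-151651242) is a small subunit of the clamp loader. Its FPKM was 18.8, 19.5 and 22.4 in the RC libraries and 23.0, 23.5 and 24.2 in the RM libraries, with RC3 close to RM1, and 3.96, 3.78 and 3.34 in the MC libraries and 2.08, 2.56 and 2.12 in the MM libraries, with every MM library below the MC libraries. Rfc3 did not pass in rat (log2 fold change 0.22 ± 0.0881 SE, adjusted P = 0.0750) but did without RC3 (0.30, adjusted P = 0.0362), and in mouse it was -0.71 ± 0.112 (SE, adjusted P = 8.40e-08). The difference was -0.93 ± 0.144 (SE, adjusted P = 2.60e-05). The 5 clamp loader subunits Rfc1 to Rfc5 had mouse log2 fold changes of -0.35, -0.71, -0.71, -1.10 and -1.11. Those of Rpa1 and Rpa2, the other subunits of RPA, were -1.33 and -1.56. Lig1, which seals Okazaki fragments, rose by 0.75 in rat and fell by 1.69 in mouse.

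Fen1 (ENSRNOG00000020531 in rat, ENSMUSG00000024742 in mouse at chr19:10199132-10204169), which trims Okazaki fragment flaps, rose in rat, from 6.97, 6.76 and 6.95 in the RC libraries to 12.9, 12.4 and 13.7 in the RM libraries (log2 fold change 0.91 ± 0.0828 SE, adjusted P = 1.71e-05). In mouse it had only 3, 3 and 8 counts in the MC libraries and 4, 2 and 2 in the MM libraries and was not tested. In GENCODE M21, 84.2% of the mouse Fen1 exon bases are shared with other genes on the opposite strand, 78.8% with the antisense gene Gm10143 and 5.4% with Tmem258. The library kit named in the labels does not mark strand, and how reads of overlapping genes were counted is not given in the sources used here. Gins2 shares 67.3% of its mouse exon bases with Gse1 and Chaf1a 52.5% with Ubxn6, so their mouse levels are uncertain too. Of the 46 mouse genes tested besides Gins2 and Chaf1a, 40 were lower.

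CDC45 and the 4 GINS subunits activate the replicative helicase. In rat 4 of 5 were higher (median 0.74), where 18.3% of all genes were. All 5 were lower in mouse (median -0.70), where 37.7% of all genes were. Gins1 (ENSRNOG00000008091 in rat, ENSMUSG00000027454 in mouse at chr2:150905400-150931280) had an FPKM of 9.00, 10.4 and 11.5 in the RC libraries and 14.7, 17.8 and 18.8 in the RM libraries. Its mouse levels were 2.77, 3.02 and 2.96 in the MC libraries and 1.13, 0.557 and 1.04 in the MM libraries. MM2 was the lowest of the MM libraries, and all of them were far below the MC libraries, while the RM libraries were all above the RC libraries. The log2 fold change of Gins1 was 0.74 ± 0.128 (SE, adjusted P = 0.00134) in rat and -1.69 ± 0.226 (SE, adjusted P = 1.16e-09) in mouse, a difference of -2.43 ± 0.256 (SE, adjusted P = 3.10e-07). Gins4 (ENSRNOG00000018040 in rat, ENSMUSG00000031546 in mouse at chr8:23226616-23237659), the most abundant of the 5, had an FPKM of 16.7, 14.04 and 16.1 in the RC libraries and 21.3, 24.9 and 21.8 in the RM libraries. In mouse the levels were 14.7, 14.6 and 14.7 in the MC libraries and 10.01, 8.64 and 10.4 in the MM libraries, clearly lower in the MM group. Gins4 changed by 0.54 ± 0.102 (SE, adjusted P = 0.00232) in rat and -0.60 ± 0.0901 (SE, adjusted P = 2.13e-08) in mouse, and the difference was -1.14 ± 0.138 (SE, adjusted P = 1.63e-06). Gins2 (ENSRNOG00000017575 in rat, ENSMUSG00000031821 in mouse at chr8:120578633-120589304) had an FPKM of 5.22, 6.40 and 5.12 in the RC libraries and 6.51, 6.55 and 7.36 in the RM libraries, with RC2 just below RM1 and RM2, and of 3.80, 3.39 and 3.46 in the MC libraries and 0.901, 1.07 and 0.859 in the MM libraries, well apart. Its rat log2 fold change, 0.29 ± 0.104 (SE, adjusted P = 0.0547), missed the threshold and passed without RC2 (0.39, adjusted P = 0.0105). The mouse value was -1.91 ± 0.128 (SE, adjusted P = 5.07e-21) and the difference -2.19 ± 0.164 (SE, adjusted P = 3.96e-09). Cdc45 and Gins3 were higher in rat by 0.91 and 0.89 and lower in mouse, at -0.47 and -0.70.

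Genes that copy chromatin and supply histones at the fork were higher in rat in 7 of 7 cases (median 0.87) and lower in mouse in 7 of 7 (median -1.30). Dnmt1 (ENSRNOG00000039859 in rat, ENSMUSG00000004099 in mouse at chr9:20907209-20959888), the maintenance DNA methyltransferase, had an FPKM of 29.8, 31.9 and 29.4 in the RC libraries and 43.9, 46.3 and 46.5 in the RM libraries. In mouse it was 15.2, 16.1 and 15.6 in the MC libraries and 8.44, 8.77 and 7.51 in the MM libraries. The RM libraries stood above and the MM libraries below all of their controls. Dnmt1 changed by 0.59 ± 0.0662 (SE, adjusted P = 8.03e-05) in rat and -0.92 ± 0.0455 (SE, adjusted P = 1.55e-27) in mouse, with a difference of -1.51 ± 0.0845 (SE, adjusted P = 9.18e-11). Slbp (ENSRNOG00000037162 in rat, ENSMUSG00000004642 in mouse at chr5:33634952-33652574) binds the stem loop of histone mRNAs. Rat levels were 32.0, 28.1 and 29.9 in the RC libraries and 41.5, 45.1 and 43.4 in the RM libraries, and mouse levels 4.56, 4.02 and 4.25 in the MC libraries and 3.47, 3.67 and 3.44 in the MM libraries. All RM libraries were higher, and the MM libraries were lower by a narrow space without overlap. Slbp had log2 fold changes of 0.53 ± 0.0778 (SE, adjusted P = 4.49e-04) and -0.28 ± 0.0750 (SE, adjusted P = 7.65e-04), and the difference was -0.81 ± 0.102 (SE, adjusted P = 2.52e-06).

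Hells (ENSRNOG00000047692 in rat, ENSMUSG00000025001 in mouse at chr19:38930915-38971051), a chromatin remodeler, had the largest rat rise of the group on very few counts, 9, 7 and 4 in the RC libraries and 23, 29 and 17 in the RM libraries. Its FPKM was 0.0709, 0.0592 and 0.0372 in the RC libraries and 0.221, 0.218 and 0.137 in the RM libraries, under the FPKM of 1 in the criteria for DEGs. In mouse the levels were 2.57, 2.85 and 2.72 in the MC libraries and 1.03, 1.32 and 0.942 in the MM libraries. The rat log2 fold change was 1.75 ± 0.386 (SE, adjusted P = 0.00571), and limma on log2(FPKM + 1) did not call it (0.18, adjusted P = 0.0563). The mouse change was -1.30 ± 0.105 (SE, adjusted P = 1.61e-17), with a difference of -3.04 ± 0.367 (SE, adjusted P = 1.60e-06). After Hells, Dtl, which marks replication proteins for destruction on PCNA, had the largest rat change of the role, 1.30, with a mouse change of -1.01. Uhrf1, which guides Dnmt1 to new DNA, had changes of 1.00 in rat and -2.06 in mouse, and the histone chaperone subunits Chaf1a and Chaf1b of 0.87 and 0.78 in rat and -1.36 and -1.97 in mouse.

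Repair and checkpoint genes had the largest median changes in rat and mouse among the 6 roles with more than 2 genes, 0.92 with 11 of 11 higher in rat and -1.68 with 9 of 11 lower in mouse. No test compared the roles. Usp1 (ENSRNOG00000007890 in rat, ENSMUSG00000028560 in mouse at chr4:98923810-98935543), which removes ubiquitin from PCNA and FANCD2, had an FPKM of 27.0, 17.8 and 22.1 in the RC libraries and 37.6, 42.8 and 39.5 in the RM libraries, with RC2 the lowest. The mouse levels were 17.3, 17.8 and 18.3 in the MC libraries and 7.04, 6.65 and 6.23 in the MM libraries. After IL-1β the rat libraries were all higher and the mouse libraries all lower. Usp1 changed by 0.84 ± 0.130 (SE, adjusted P = 6.32e-04) in rat and -1.42 ± 0.0581 (SE, adjusted P = 9.32e-32) in mouse, a difference of -2.26 ± 0.157 (SE, adjusted P = 1.44e-09). Msh6 (ENSRNOG00000016134 in rat, ENSMUSG00000005370 in mouse at chr17:87975062-87990892), a mismatch recognition protein, had an FPKM of 10.5, 8.82 and 9.20 in the RC libraries and 16.7, 16.6 and 16.1 in the RM libraries. In mouse it had 7.95, 7.95 and 6.84 in the MC libraries and 7.74, 8.03 and 9.02 in the MM libraries. The rat groups were well apart, and the mouse groups overlapped, with MM1 below MC1 and MC2. Msh6 rose in rat (log2 fold change 0.79 ± 0.0826 SE, adjusted P = 4.63e-05), and its mouse value was 0.12 ± 0.0665 (SE, adjusted P = 0.0892), which was not called, passed without MM1 (0.18, adjusted P = 0.0301) and reversed to -0.16 with library size alone (adjusted P = 0.0280). The difference was -0.67 ± 0.116 (SE, adjusted P = 8.33e-05).

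Blm (ENSRNOG00000011213 in rat, ENSMUSG00000030528 in mouse at chr7:80454733-80535119), the Bloom syndrome helicase, had an FPKM of 4.40, 3.18 and 2.97 in the RC libraries and 7.44, 8.95 and 8.05 in the RM libraries, and of 1.25, 1.31 and 1.28 in the MC libraries and 0.936, 1.20 and 1.21 in the MM libraries. RC1 was the highest RC library but far below the RM libraries, and MM2 and MM3 lay just under the MC libraries. Its log2 fold change was 1.21 ± 0.141 (SE, adjusted P = 9.74e-05) in rat and -0.20 ± 0.112 (SE, adjusted P = 0.0976) in mouse, not called, but -0.48 with library size alone (adjusted P = 9.88e-05). The difference was -1.41 ± 0.195 (SE, adjusted P = 7.72e-06). Fanci (ENSRNOG00000016689 in rat, ENSMUSG00000039187 in mouse at chr7:79391929-79450264), a partner of FANCD2 in the repair of crosslinked DNA, had the lowest mouse log2 fold change. Rat levels were 9.62, 9.06 and 9.63 in the RC libraries and 15.8, 16.6 and 14.8 in the RM libraries, and mouse levels 1.33, 1.69 and 1.79 in the MC libraries and 0.229, 0.156 and 0.272 in the MM libraries. Each MM library held only a small part of the MC level, at 65 counts over the MM group against 531 over the MC group. Fanci had log2 fold changes of 0.74 ± 0.0770 (SE, adjusted P = 4.67e-05) and -2.88 ± 0.191 (SE, adjusted P = 2.93e-21), a difference of -3.62 ± 0.194 (SE, adjusted P = 5.27e-11). In mouse it shares 16.0% of its exon bases with Polg on the opposite strand. Exo1, Brca1 and Clspn had the highest rat changes of the role, 1.24, 1.24 and 1.22, with mouse changes of -2.79, -1.65 and -2.39. Clspn carries the checkpoint signal from stalled forks to the kinase CHK1, and Brca1 acts in homologous recombination. Brca2, Fancd2, Rad51ap1 and the uracil glycosylase gene Ung completed the role, with rat changes of 1.21, 0.86, 0.92 and 0.63 and mouse changes of -1.68, -2.13, -2.01 and -0.68.

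E2f8 (ENSRNOG00000022537 in rat, ENSMUSG00000046179 in mouse at chr7:48866429-48881596) encodes a repressor of the E2F family that is itself made in S phase. Its FPKM was 6.86, 6.22 and 6.55 in the RC libraries and 12.8, 14.3 and 14.3 in the RM libraries. Its mouse levels were 2.01, 1.83 and 1.88 in the MC libraries and 0.334, 0.507 and 0.554 in the MM libraries. Rat levels in the RM group were about double those of the RC group, and all MM libraries were far under the MC libraries. E2f8 had log2 fold changes of 1.08 ± 0.0855 (SE, adjusted P = 6.84e-06) and -2.04 ± 0.158 (SE, adjusted P = 2.67e-18), a difference of -3.12 ± 0.174 (SE, adjusted P = 8.76e-11). E2f1 (ENSMUSG00000027490 in mouse at chr2:154559407-154569892), an activator of S phase genes, was in the mouse table only. The levels were 12.1, 12.8 and 13.1 in the MC libraries and 14.8, 15.5 and 15.6 in the MM libraries, higher in all MM libraries on this scale but not with library size alone. The deposited FPKM without TMM scaling overlapped, at 13.3, 14.1 and 14.4 in the MC libraries and 13.4, 14.1 and 14.2 in the MM libraries. Its log2 fold change of 0.27 ± 0.0559 (SE, adjusted P = 1.84e-05) went to -0.01 with library size alone (adjusted P = 0.888). With TMM, expression of E2f1 and E2f8 thus moved in opposite directions in mouse, whereas with library size alone E2f1 was not called.

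**Figure D4:**
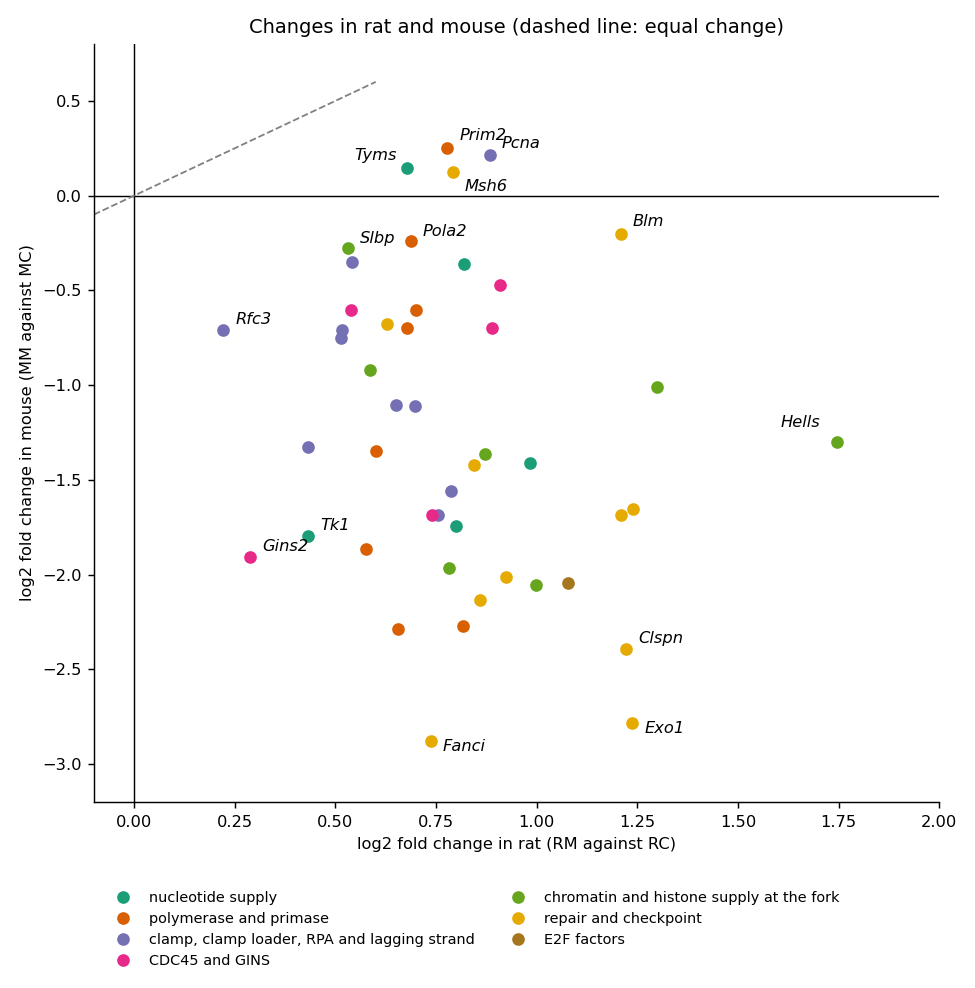
Log2 fold change in rat (horizontal) against mouse (vertical) for the 47 genes tested in both species, coloured by role, with a dashed line of equal change. All 47 points lie below the line, and 43 lie right of and under 0, while Pcna, Prim2, Tyms and Msh6 lie above 0 in mouse with TMM scaling and below 0 with library size alone.

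In the plot of rat against mouse changes, genes with like rat changes were spread over the whole mouse range. Fanci and Prim2, for example, had rat log2 fold changes of 0.74 and 0.78, and mouse changes of -2.88 and 0.25.

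Other genes of the same pathways, 153 in 8 lists, moved less uniformly. In rat 66 of 149 tested were higher and 2 lower (median 0.28), where 18.3% and 16.8% of all genes were. In mouse 31 of 150 were higher and 93 lower (median -0.44), where 37.4% and 37.7% of all genes were. The counts of every list stand beside the same shares of all genes, 18.3% higher and 16.8% lower in rat and 37.4% and 37.7% in mouse. The genes named from each list had its highest and lowest called changes. The difference between the species was called for 107 of 146, with 93 higher in rat and 14 higher in mouse, where 32.3% and 31.4% of all shared genes were. Other replication fork genes had the largest share called higher in rat of the 8 lists, with 19 of 23 higher and 1 lower in rat and 16 of 24 lower and 5 higher in mouse. Their highest rat change was that of Atad5, which unloads PCNA (1.27 ± 0.189 SE, adjusted P = 5.06e-04), and the lowest that of Pold4, a small subunit of polymerase delta (-0.64 ± 0.155 SE, adjusted P = 0.00919). In mouse, Dscc1, part of an alternative clamp loader, had the lowest change (-3.47 ± 0.360 SE, adjusted P = 3.17e-13) and Pole4, a histone-fold subunit of polymerase epsilon, the highest (0.72 ± 0.0618 SE, adjusted P = 1.65e-16). Of homologous recombination and Fanconi genes, 15 of 27 were higher and 0 lower in rat, and 18 of 27 lower and 2 higher in mouse. Called changes ran from 0.43 ± 0.135 (SE, adjusted P = 0.0303) for Fancm to 1.35 ± 0.129 (SE, adjusted P = 2.43e-05) for Fancb in rat, and in mouse from -2.72 ± 0.446 (SE, adjusted P = 1.92e-07) for Rmi2 to 1.00 ± 0.0848 (SE, adjusted P = 1.39e-16) for Mus81, which cuts joined chromosomes. Other chromatin assembly genes were higher in 8 of 11 cases and lower in 0 in rat, and lower in 9 of 11 and higher in 1 in mouse. The rat calls ran from Rbbp7 (0.26 ± 0.0841 SE, adjusted P = 0.0379) to Cdca7 (1.10 ± 0.0888 SE, adjusted P = 7.53e-06), and the mouse calls from the histone chaperone Asf1b (-2.05 ± 0.127 SE, adjusted P = 1.00e-22) to Hira (0.35 ± 0.115 SE, adjusted P = 0.00491).

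Genes of other nucleotide supply steps were called higher in only 3 of 16 cases in rat (18.8%), close to the 18.3% of all genes, and lower in 12 of 15 in mouse with 2 higher. Rat calls ran from Dctd (0.28 ± 0.0957 SE, adjusted P = 0.0441) to the deoxycytidine kinase gene Dck (1.25 ± 0.136 SE, adjusted P = 6.16e-05). Mouse calls ran from Samhd1, which degrades deoxynucleotides (-2.06 ± 0.0471 SE, adjusted P = 1.22e-45), to the mitochondrial thymidine kinase gene Tk2 (0.35 ± 0.0817 SE, adjusted P = 1.17e-04). Of mismatch and base excision genes, 3 of 21 were higher (14.3%) and 0 lower in rat, against 18.3% and 16.8% of all genes. In mouse 11 of 21 were lower (52.4%) and 4 higher (19.05%), against 37.7% and 37.4% of all genes. Neil3, a glycosylase gene, had the highest rat change (1.12 ± 0.192 SE, adjusted P = 0.00126) and the lowest mouse change (-2.36 ± 0.151 SE, adjusted P = 4.35e-22), while Parp1 had the smallest called rat change (0.26 ± 0.0691 SE, adjusted P = 0.0142) and Mlh3 the highest mouse change (0.63 ± 0.0792 SE, adjusted P = 2.06e-10). Nucleotide excision and end joining genes were higher in 2 of 21 cases (9.52%) and lower in 1 (4.76%) in rat. The shares of all genes were 18.3% and 16.8%. In mouse 8 of 22 were higher and 8 lower (36.4% each), close to the 37.4% and 37.7% of all genes. Ercc1 was the highest (0.70 ± 0.0962 SE, adjusted P = 2.98e-04) and Xrcc6 the lowest (-0.26 ± 0.0707 SE, adjusted P = 0.0159) in rat, and Polm (1.19 ± 0.0683 SE, adjusted P = 2.86e-24) and Xrcc5 (-1.01 ± 0.0769 SE, adjusted P = 1.10e-18) in mouse. Checkpoint kinase and translesion genes were higher in 10 of 19 cases and lower in 0 in rat, from Rev1 (0.26 ± 0.0865 SE, adjusted P = 0.0370) to Polq (1.10 ± 0.186 SE, adjusted P = 0.00116). In mouse 13 of 19 were lower and 4 higher, from the checkpoint kinase gene Chek1 (-1.52 ± 0.168 SE, adjusted P = 2.60e-12) to the translesion polymerase gene Polk (1.56 ± 0.0575 SE, adjusted P = 3.95e-34). E2F, DP and pocket protein genes were higher in 6 of 11 cases and lower in 0 in rat, from Tfdp1 (0.46 ± 0.0620 SE, adjusted P = 2.51e-04) to the repressor E2f7 (0.89 ± 0.132 SE, adjusted P = 4.78e-04). In mouse 5 were higher and 6 lower, from the pocket protein genes Rbl1 (-1.62 ± 0.0906 SE, adjusted P = 8.48e-25) to Rb1 (1.37 ± 0.0768 SE, adjusted P = 8.43e-25), which restrains E2F activators.

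**Figure D5:**
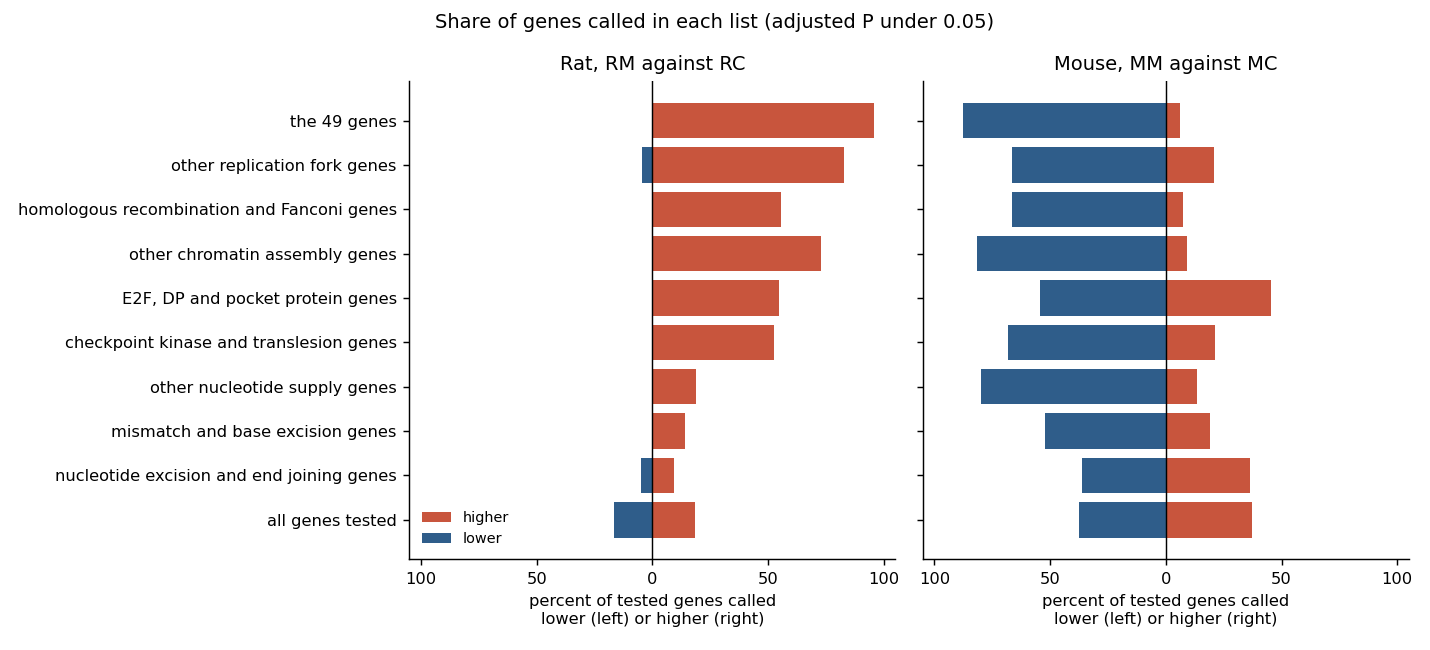
Percent of tested genes called higher (red, right) or lower (blue, left) at an adjusted P value under 0.05 in rat and mouse, for the group of 49 genes, the 8 lists of related genes and all genes tested. The group has the highest share called higher in rat (95.8%) and the highest share called lower in mouse (87.5%), and nucleotide excision and end joining genes have the smallest shares of the 8 lists (9.52% and 36.4%). Group and lists were chosen with earlier results of these data known.

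In the plot of shares, every list had a smaller share called higher in rat and a smaller share called lower in mouse than the group. Members and lists were chosen with earlier results of these data known, so this ranking may follow from the choice. The lists are described by their counts alone, and no set was tested.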

How the data were processed

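Total RNA of 12 libraries was sequenced, and the labels name a library kit that does not mark strand. The processing notes of the authors name HISAT2 and HTSeq 0.11.2 and the builds Rnor_6.0 and GRCm38. The deposited tables hold raw counts per gene and the FPKM that the authors computed from them. The gene length implied by count, total count and FPKM was checked in genes with at least 10 counts in every library (12390 in rat and 12916 in mouse), and it agreed between libraries within 0.1% for 74340 of 74340 and 77496 of 77496 values. Genes with fewer counts were not checked.

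Counts of each species were tested in R 4.3.3 with edgeR 4.0.16 (TMM, filterByExpr, quasi-likelihood test, BH adjustment over all genes tested, threshold 0.05). The difference of changes was fitted over all 4 groups for genes shared by symbol. Standard errors were computed from the fold change and the F statistic. DESeq2 1.42.0, limma 3.58.1 on log2(FPKM + 1) and log2(FPKM + 0.1), voom with weights per group, other scalings, no filter, a replicate block and leaving out each library served as alternatives. The scripts were tested on simulated data.

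Members and lists were chosen with earlier results of these data known. Genes were named by this rule: Pcna, the 2 of each role with the highest mean FPKM, those not called in the direction of most members of a species, and those with the highest and lowest log2 fold change in a species. From each list the called genes with the highest and lowest log2 fold change were named. Rat promoter windows came from RefSeq on GRCr8 and mouse gene positions from GENCODE M21. Mouse promoters and rat gene positions were left out because no matching reference was at hand.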

Additional observations from a re-analysis of the deposited data

Results flagged for a closer look

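A difference between rat and mouse in the change after IL-1β was found for 47 of 47 genes tested in both species. On the log2 scale, mouse change minus rat change was -2.39 for Rrm2, -0.53 for Tyms, -2.23 for Tk1, -2.44 for Prim1, -0.52 for Prim2, -0.93 for Pola2 and -0.67 for Pcna. It was -0.93 for Rfc3, -1.27 for Rpa3, -2.43 for Gins1, -2.19 for Gins2, -1.14 for Gins4, -1.51 for Dnmt1 and -3.04 for Hells. For the remaining genes named by the rule it was -0.81 for Slbp, -0.67 for Msh6, -1.41 for Blm, -3.62 for Fanci, -2.26 for Usp1 and -3.12 for E2f8. Species, animal strain, library set and sequencing depth differ together between the rat and mouse groups, and their part in these differences was not tested.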

How the results depend on the processing

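The difference between the species kept its direction and stayed under an adjusted P of 0.05 under all other scalings, tools, filters and left-out libraries. This held for every gene named by the rule and tested in both species, and the genes named from the lists are not included. The count of genes higher in rat was 47 throughout, except 48 with no filter and 42 with a difference of at least 0.85, which Prim2, Tyms, Msh6, Pcna and Slbp did not reach, and the count higher in mouse was 0. In rat the count of higher genes was 45 to 47 over other scalings, tools and left-out libraries, and 16 by the criteria for DEGs, which ask for a fold change and an FPKM and use unadjusted P. The count of lower genes was 0. In mouse the count of lower genes was 41 to 44, and 29 by the criteria for DEGs. The count of higher mouse genes was 3 or 4 without any 1 library, and 0 with library size alone, with limma on either log2 FPKM and by the criteria for DEGs.

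The reversed mouse log2 fold changes, with library size alone, limma on log2(FPKM + 1) and limma on log2(FPKM + 0.1), were -0.0663, -0.0640 and -0.0653 for Pcna and -0.156, -0.137 and -0.152 for Msh6. They were -0.00890, -0.00634 and -0.00673 for E2f1, -0.132, -0.104 and -0.127 for Tyms, and -0.0262, -0.0181 and -0.0241 for Prim2. These settings have no TMM factor, by construction, and which scaling is right was not tested. Gins2 in rat passed with library size alone (adjusted P = 0.0455).

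With a replicate block the counts were 46 higher and 0 lower in rat, 3 higher and 42 lower in mouse, and 47 and 0 for the difference. Deviations of libraries with the same number had correlations of 0.0241, -0.0977 and 0.0849 in rat and 0.00124, 0.0149 and 0.00482 in mouse, so the numbers do not pair the libraries.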
